A study of Homo sapiens with 2 samples.

Results

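EMC10 encodes a subunit of the endoplasmic reticulum membrane complex (EMC), and it was examined together with the other genes of the complex in RWPE-1 cells, a noncancerous line of human prostate epithelium, after transfection of pre-miR-424. The set comprised EMC1, EMC2, EMC3, EMC4, EMC6, EMC7, EMC8, EMC9, EMC10 and MMGT1, the gene of the subunit also called EMC5, which are 10 of the 19740 genes with a probe on the array. EMC10 was chosen by its measured log2 ratio on these same arrays, so its ratio is given here as a description with no test. The other members were chosen by their function in the complex. Cells grown in keratinocyte serum-free medium received either pre-miR-424, a synthetic precursor of the microRNA miR-424, or a negative control precursor (Negative control #1), each at 30 nM. Amplified RNA of both was hybridised together to 2 two-colour arrays. On the first, with labelling called normal here, the pre-miR-424 RNA carried the dye Cy5 and the control RNA Cy3, and on the second, the swap, the dyes were exchanged. The arrays are technical replicates of the same comparison and count as 1 replicate, so no p-value was computed, the spread between arrays holds no spread between cultures, and the number of arrays limits the precision. These were bulk RNA samples of 1 line, in which fewer cells of a type and less RNA per cell cannot be told apart.

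The EMC places membrane proteins in the membrane of the endoplasmic reticulum, in particular tail-anchored proteins and multipass proteins with weakly hydrophobic segments. EMC3, a member of the Oxa1 family of insertases, and EMC6 form the membrane core. EMC2 anchors the cytosolic part, on which EMC8 and its paralogue EMC9 take the same place, and EMC1, EMC7 and EMC10 make up much of the lumenal part. EMC10 is also made as a secreted form by alternative splicing.

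The mature miR-424 sequences are shown because a precursor of miR-424 was transfected, and those of miR-15a, miR-16 and miR-497 because they share the seed of miR-424-5p. The labels do not say which mature strand the precursor was designed to give, and neither strand was measured here. Capitals mark the seed, bases 2 to 8, and the sequences are from RefSeq (GRCh38.p14).
hsa-miR-424-5p: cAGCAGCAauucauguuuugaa
hsa-miR-424-3p: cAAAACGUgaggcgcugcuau
hsa-miR-15a-5p: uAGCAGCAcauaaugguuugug
hsa-miR-16-5p: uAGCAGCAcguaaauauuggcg
hsa-miR-497-5p: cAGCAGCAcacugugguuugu
The first lies at chrX:134546680-134546701 and the second at chrX:134546644-134546664, both on the minus strand. This seed is shared by 7 human mature microRNAs listed in RefSeq, the others being miR-15b-5p, miR-195-5p and miR-6838-5p. The seed of miR-424-3p is a different one.

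Of 42405 probes, 25983 stood well above background for both dyes and on each array, 25664 of these had no outlier spot and counted as measured, and they represented 13812 genes. No spot was saturated on either array. The log2 ratio of pre-miR-424 over control had an SD across measured probes of 0.24 with normal labelling and 0.27 after the dye swap, and the median over all measured genes was 0.0010 and -0.00028. The Pearson correlation of these ratios between the arrays was 0.16 over measured probes, so most of their variation did not repeat. All 7 markers of prostate epithelium (KRT5, KRT14, TP63, ITGB4, LAMB3, KRT8 and KRT18) were above background, and of 6 markers of other cells or of luminal secretion, KLK3, ACPP and PECAM1 had no probe above background and KLK2, PTPRC and DES had 1 probe each, whose highest channel signals were 187, 165 and 340.5. The channel signals of the epithelial markers ran down to 297.5 to 497.75 for TP63, and levels of different probes are not comparable.

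The 10 genes of the complex had 13 probes, and all 13 were measured. EMC1, EMC4 and EMC10 had 2 probes each, and 3 probes (those of MMGT1 and EMC8 and 1 of EMC4) were printed as 10 spots. Channel signals of these probes ran from 436 to 39686.5, over local backgrounds of 24 to 74. All of the genes of the complex were therefore detected in these cells under both treatments.

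EMC10 rose in pre-miR-424 cells. At the brighter of its probes, which is annotated to NM_175063, the scanner read 14285 for pre-miR-424 in Cy5 and 4080 for control in Cy3 with normal labelling, and 7817 for pre-miR-424 in Cy3 and 7235 for control in Cy5 after the dye swap. The pre-miR-424 signal was the higher of the pair in both dye orientations, although Cy5 was the brighter dye on both arrays. Before any normalization, the log2 ratio of Cy5 over Cy3 at this probe was 1.81 with normal labelling, where the median of the 1000 measured probes nearest in brightness was 0.64, and -0.12 after the dye swap, where that median was 1.01. Relative to probes of like brightness the dye ratio was thus shifted up with normal labelling and down after the dye swap.

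**Figure D1:**
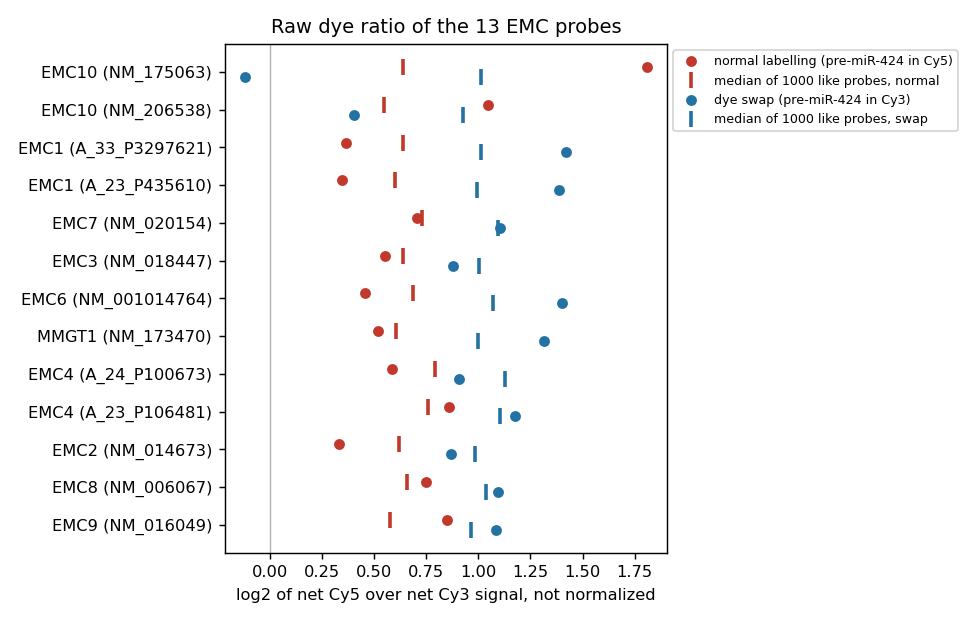
Log2 ratio of Cy5 over Cy3 signal, background-subtracted and not normalized, at the 13 probes of the complex. Red dots are the normal array, blue dots the swap, and ticks the median of the 1000 measured probes nearest in brightness on the same array. The brighter EMC10 probe lies at 1.81 with normal labelling and -0.12 after the dye swap, to the right of its tick on the first and to the left on the second, as does the dimmer EMC10 probe.

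After normalization, the log2 ratio of pre-miR-424 over control at this probe was 1.15 with normal labelling and 1.14 after the dye swap, a mean of 1.14 with an SD between arrays of 0.0098, or 2.21-fold. Genes at least 2-fold higher on both arrays made up 0.0724% of the 13812 measured genes, 10 in number, and EMC10 had the lowest mean ratio of them. At the level of probes, 0.0546% were 2-fold higher on both arrays, and the brighter EMC10 probe ranked 14 of 25664 by mean ratio. Just outside the limit of 2-fold on both arrays lay ZBP1, at 1.01 and 0.99, IFITM1, at 1.13 and 0.98 at its brighter probe, and DTX3L, at 0.97 and 1.05. After loess, the difference between the arrays divided by 2, which measures how far dye and array set a ratio, was 0.0069 for EMC10. The SD of that quantity over all measured probes was 0.17. EMC10 was chosen by its ratios on these same arrays, so its small difference is a description and no support. The call depended on the processing: with median centring in place of loess EMC10 gave 1.36 with normal labelling and 0.81 after the dye swap, and with the mean over both of its probes 0.81 and 0.80, so that 2-fold was not reached on both arrays.

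The dimmer EMC10 probe gave a smaller ratio. It is annotated to NM_206538, another EMC10 transcript, and the scanner read 918 for pre-miR-424 and 436 for control with normal labelling, and 529.5 and 736 after the dye swap. Its log2 ratio was 0.48 with normal labelling and 0.47 after the dye swap, a mean of 0.47 with an SD between arrays of 0.0030, or 1.39-fold. It did not reach 2-fold on either array, and it ranked 337 of the measured probes. The probes differed by 0.68 with normal labelling and 0.67 after the dye swap on the log2 scale, a description that rests on the value by which EMC10 was chosen. Among probes of like brightness, the SD of the array difference divided by 2 was 0.14 at the brighter probe and 0.16 at the dimmer. Of the measured probes, 86.9% were dimmer than the first EMC10 probe and 48.5% dimmer than the second. With an offset of 16 in place of 50 the dimmer probe was at 0.50 and the mean difference between the probes 0.65. Without background correction or offset these were 0.48 and 0.665, and with the scanner software's own log ratios 0.55 and 0.60. Beyond these alternatives, the part of the offset in the difference was not tested. Whether the probes read different transcripts was not tested.

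**Figure D2:**
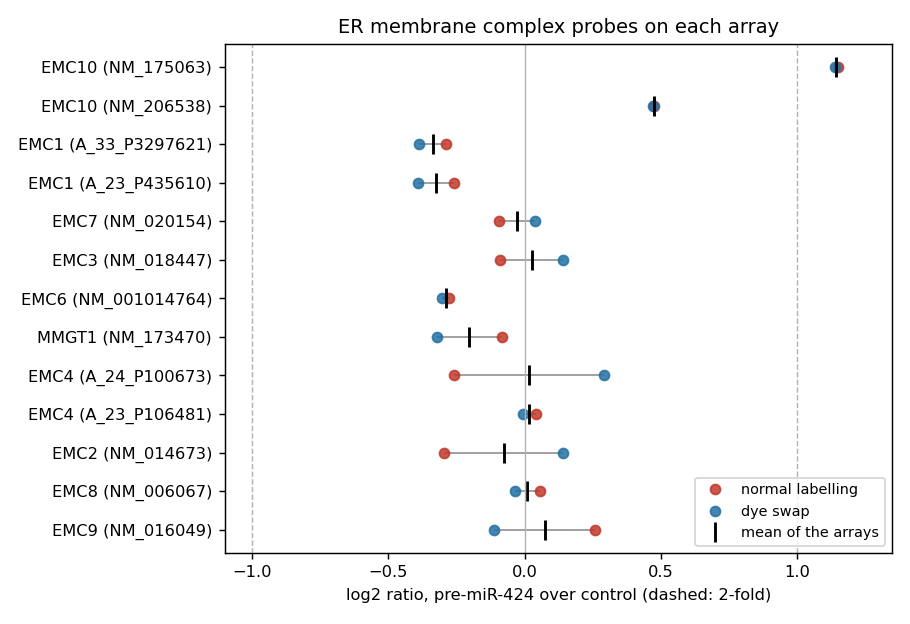
Log2 ratio of pre-miR-424 over control at the 13 probes of the complex, 1 dot for each array and a black tick for their mean, with dashed lines at 2-fold. Only the brighter EMC10 probe lies past 2-fold on both arrays, and the probes of EMC1, EMC6 and MMGT1 lie below 0 on both after loess (with median centring EMC6 and MMGT1 lie at 0.018 and 0.080 with normal labelling).

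Among the other lumenal subunits, EMC1 was lower and EMC7 was not distinguishable from 0. EMC1, the largest subunit, read 9304 for pre-miR-424 and 7187 for control with normal labelling, and 4957.5 and 13255 after the dye swap, at its brighter probe. Its log2 ratio was -0.29 with normal labelling and -0.39 after the dye swap, a mean of -0.34 with an SD of 0.070, or 1.26-fold lower. The second EMC1 probe, annotated to the same transcript NM_015047, gave -0.26 and -0.39, a mean of -0.32 with an SD of 0.094. The EMC1 probes thus differed by only -0.030 and 0.0032 on the respective arrays, unlike those of EMC10. EMC1 had the 548th lowest mean of the 13812 genes, so that 3.96% of genes lay below it. At the EMC7 probe the ratio was -0.093 with normal labelling and 0.037 after the dye swap, with opposite signs and a mean of -0.028.

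Of the subunits in the membrane, EMC6 and MMGT1 were lower on both arrays, although with median centring in place of loess their ratios with normal labelling were 0.018 and 0.080, against a median of all genes of 0.13. EMC6, which pairs with EMC3 in the core, read 17384 and 12649 for pre-miR-424 and control with normal labelling and 9037 and 23886 after the dye swap. Its log2 ratio was -0.28 and -0.30, a mean of -0.29 with an SD of 0.020, or 1.22-fold lower, and 5.66% of genes had a lower mean. The small SD depended on the processing. EMC6 was at -0.13 and -0.40 with the scanner software's log ratios, and at 0.018 and -0.70 with median centring. MMGT1, first described as a magnesium transporter, had a log2 ratio of -0.084 with normal labelling and -0.32 after the dye swap, a mean of -0.20 with an SD of 0.17. Its 10 spots ranged from -0.20 to -0.0018 with normal labelling, with a median of -0.045, and from -0.39 to -0.23 after the dye swap, with a median of -0.32. All spots of MMGT1 were thus below 0, but the spots of the arrays did not overlap, so its size depended on the array. EMC3, the insertase, gave -0.089 and 0.14, a mean of 0.026 with an SD of 0.16.

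EMC4, a further membrane subunit, differed between arrays at 1 of its probes. The brighter, printed as a single spot, gave -0.26 with normal labelling and 0.29 after the dye swap, while the other, printed as 10 spots, gave 0.041 and -0.0061. The spots of the latter ranged from -0.019 to 0.11 with normal labelling and from -0.12 to 0.098 after the dye swap. Their means over the arrays were both 0.017, and neither probe differed from 0 beyond its spread.

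The cytosolic subunits had ratios of opposite sign on the arrays. EMC2, the scaffold of this part, gave -0.29 and 0.14, a mean of -0.077 with an SD of 0.31. EMC8 gave 0.057 and -0.036, and its 10 spots ranged from -0.070 to 0.20 with normal labelling and from -0.19 to 0.062 after the dye swap, to either side of 0 on both. EMC9 gave 0.26 and -0.11, a mean of 0.073 with an SD of 0.26. No difference was detectable for EMC8 or for EMC9, the paralogues that share a place in the complex.

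**Figure D3:**
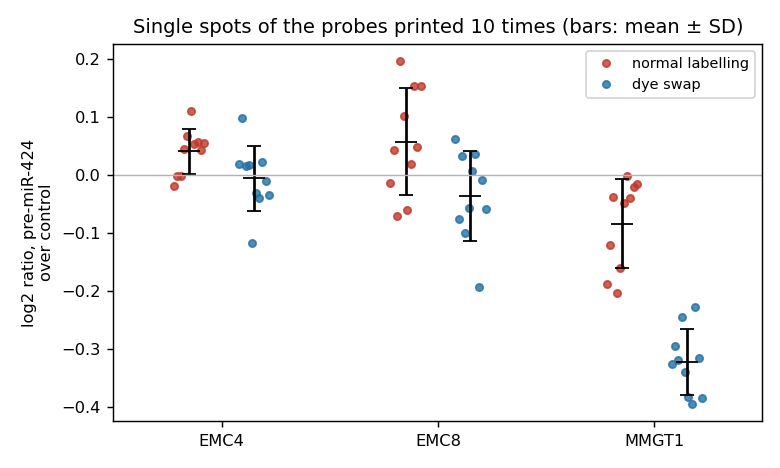
Log2 ratio of pre-miR-424 over control at each of the 10 spots of the EMC4, EMC8 and MMGT1 probes printed 10 times, for each array, with bars for the mean and SD over spots. After loess all MMGT1 spots lie below 0, those of the swap (-0.39 to -0.23) under those of the normal array (-0.20 to -0.0018), while EMC4 and EMC8 spots lie on either side of 0.

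Across the complex, 1 of 10 genes, EMC10, was higher on both arrays, 3 were lower on both (EMC1, and after loess but not median centring EMC6 and MMGT1) and 6 had opposite signs. With median centring, 2 of the 9 genes other than EMC10 were lower on both arrays, EMC1 among them. Over all measured genes 26.8% were higher and 26.7% lower on both arrays, so that 3 lower genes of 10 is close to the background. None of the 10 was 2-fold lower, against 0.029% of all genes. The median mean log2 ratio of the 9 genes other than EMC10 was -0.028, against -0.0040 over all genes. EMC10 exceeded the median of the other 9 by 1.24 with normal labelling and 1.17 after the dye swap, and the highest of them by 0.89 and 0.85. Its dimmer probe exceeded the highest of them by 0.22 and 0.18. The mean ratios of EMC1, EMC6 and MMGT1 were larger in size than the SD of the array difference divided by 2 among probes of like brightness, which was 0.14 to 0.16 for the probes of the complex. For MMGT1 the mean was -0.20 against an SD of 0.15, and 11.5% of genes had a lower mean. These genes were picked for having the same sign on both arrays, which favours a larger mean, so this is a description.

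**Figure D4:**
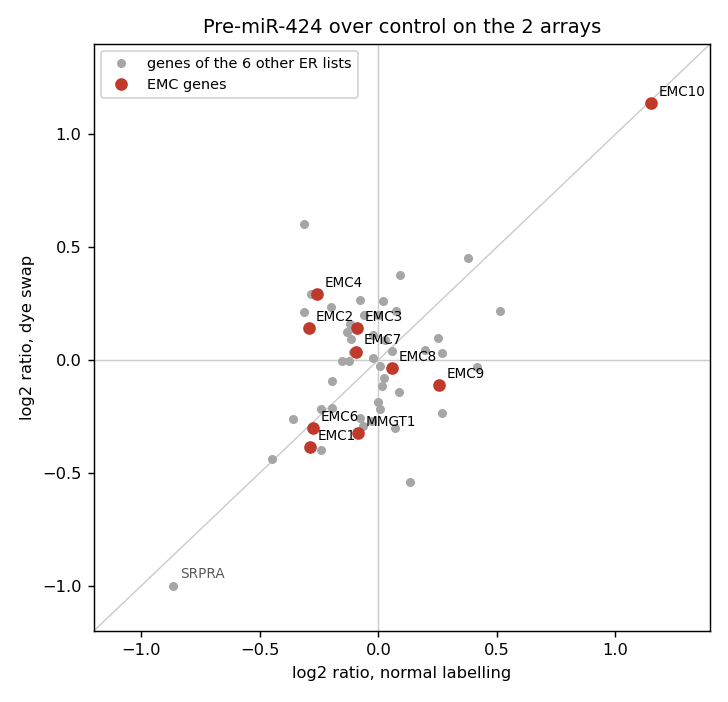
Log2 ratio of pre-miR-424 over control with normal labelling (x axis) against the swap (y axis) for the genes of the complex (red) and of 6 other gene lists (grey), with the diagonal where both arrays are equal. EMC10 lies on the diagonal at 1.15 and 1.14, apart from the other members, and SRPRA at -0.87 and -0.9998.

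Other routes into the endoplasmic reticulum membrane were read from lists of their genes. No gene of the SEC61 translocon, the GET pathway for tail-anchored proteins, the multipass translocon or the signal recognition particle with its receptor was 2-fold changed on both arrays. Of the 30 measured genes of these lists, out of 32 listed, 5 were higher on both arrays, 9 lower on both and 16 opposite in sign, with a median of -0.018. These counts, and those of each list given next, stand against 26.8% of all genes higher and 26.7% lower on both arrays, and 14 of 13812 genes changed 2-fold. The lowest was SRPRA, the receptor subunit that binds the signal recognition particle at the membrane, with -0.87 with normal labelling and -0.9998 after the dye swap at its single probe. Its mean was -0.93 with an SD of 0.093. The value after the dye swap lay at the 2-fold limit and was past it in 5 alternatives, at -1.27 with median centring, while the value with normal labelling was short of 2-fold in all alternatives with both arrays.

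Among the 10 measured genes of the SEC61 translocon and its associated subunits, 4 were higher on both arrays and 3 lower, with a median of 0.024. SSR3, a subunit of the translocon-associated TRAP complex, was the lowest with -0.45 and -0.44, and SEC61A2 the highest at the brightest probe of each gene with 0.27 and 0.031. A second SEC61A2 probe had a mean of 0.047, and a second probe of SEC63, which acts beside the channel, had a mean of 0.42 against 0.14 at its brightest, so the order at the top depends on the probe. The 6 measured genes of the GET pathway had a median of -0.099, with 1 higher and 2 lower on both arrays, and this median was 0.0028 with normal labelling and -0.20 after the dye swap. They ran from SGTA, a chaperone for tail-anchored proteins, at 0.13 and -0.54, to GET4 at 0.093 and 0.38. SGTA had opposite signs on the arrays.

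The 6 genes of the multipass translocon had a median of -0.076, with 0 higher and 2 lower on both arrays. NOMO1 was the lowest with -0.36 and -0.26, but it has near-identical paralogues that its probe may also read, and CCDC47 was the highest with -0.078 and 0.27. The 8 genes of the signal recognition particle and its receptor had a median of -0.0021, with SRP19 the highest at -0.31 and 0.60. A second SRP19 probe gave -0.052 and 0.071, so that the probes disagreed in size. TRAM1, at the translocon, had an outlier spot at its probe and was not measured, and BAG6, of the GET pathway, gave no value here.

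Of the proteins known to need the EMC for insertion, FDFT1 (squalene synthase) gave -0.13 and -0.0065, SOAT1 (which esterifies cholesterol) -0.31 and 0.21, and TMEM97 a mean of -0.0056. None of the 3 was 2-fold changed, and 1 was lower on both arrays, against 26.7% of all genes. RNA levels carry no measure of how much of these proteins was inserted.

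**Figure D5:**
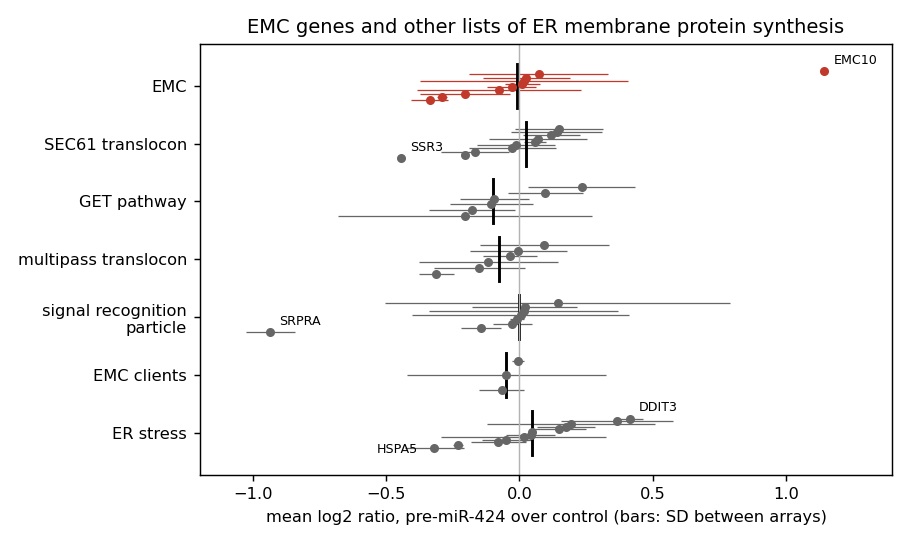
Mean log2 ratio of pre-miR-424 over control for each measured gene of the complex and of 6 other lists, with bars for the SD between arrays and a black line for the median of each list. EMC10 at 1.14 is the highest gene shown and SRPRA at -0.93 the lowest, and the list medians lie between -0.099 and 0.046.

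None of the measured genes beside EMC10 on its chromosome was 2-fold changed, as for all but 14 of the 13812 genes. Of the 5 nearest genes on either side in the RefSeq table, 8 had a probe and 4 were measured. NR1H2 gave -0.011 and -0.32, POLD1 gave 0.33 and 0.042, and ASPDH gave -0.18 and -0.12. GARIN5A, adjacent to EMC10, gave -0.13 and -0.24. The 4 thus had mean ratios from -0.19 to 0.18, against 1.14 for EMC10.

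The genes whose pair of ratios lay nearest to that of EMC10, by Euclidean distance over the 2 arrays, were SWAP70, IFITM1, FZD5, ZBP1 and DTX3L. SWAP70, a guanine nucleotide exchange factor of B cells and other cells, was the nearest with 1.19 and 1.17, at a distance of 0.052. FZD5, a receptor for Wnt proteins, gave 1.09 and 1.28, and IFITM1, an interferon-induced membrane protein, gave 1.13 and 0.98. A second IFITM1 probe, at 1.04 and 1.22, was past 2-fold on both arrays. These distances rest on 1 pair of values for each gene.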

How the data were processed

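Spot intensities were deposited by the authors from Agilent Feature Extraction 10.7.3.1 as median signals and local backgrounds of each channel, not normalized, with the software's own log10 ratio of Cy5 over Cy3, made from its background-corrected, dye-normalized signals. A value table of log2 ratios was deposited as well, for which the sources used here name limma but no steps. Its columns matched Cy5 over Cy3 of the values computed here, not turned on the swap (Pearson correlation 0.991 and 0.988 over 42405 probes, column medians 0.0236 and 0.0355).

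The labels gave the groups and dyes. In limma 3.58.1 (R 4.3.3), normexp (offset 50, all spots) corrected the background, and after removal of control spots loess was applied within arrays. Brightness was scaled between arrays (Aquantile) to find probes of like brightness only. Ratios were turned to pre-miR-424 over control, and spots of a probe averaged. A probe was measured if well above background for both dyes and on each array and without outlier spot, and the brightest such probe stood for its gene. Changed means a log2 ratio of 1 or more, up or down alike, on each array. Loess sets most ratios near 0, so a shift of all RNAs would be lost.

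RefSeq accessions were given for 27134 probes, and 25771 (95.0%) found a symbol in the RefSeq table (GRCh38.p14), used for names and neighbour order, since the array is annotated on hg19. The planned mean pixel signal was not analysed here. The members and gene lists were chosen with earlier results of these data known. Named were every probe of the members, the highest and lowest gene of each list and any gene changed 2-fold, 5 neighbours on each side of EMC10 and the 5 genes nearest to it in ratio. The calling rule was tested on simulated data. The tables and plots were made with Python 3.11.15, pandas 2.3.3, numpy 2.4.6 and matplotlib 3.10.9. Alternatives changed the offset, background, normalization, values, filters, probe rule, threshold and array used.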

Additional observations from a re-analysis of the deposited data

How the results depend on the processing

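Across 12 alternatives, 279 of 305 recomputed values were classed as the same, 26 as moved and 0 as reversed. For ratios the class followed the SD between arrays of each result, so a noisy ratio could move far and stay the same. EMC4, at 0.017, was classed as the same at 0.29 and -0.26 with 1 array alone, a change of sign. The dimmer EMC10 probe was classed as moved from 0.474 to 0.481 without background correction. With median centring in place of loess, the mean log2 ratio of EMC10 was 1.09, with 1.36 with normal labelling and 0.81 after the dye swap, so that 0 genes of the complex passed 2-fold on both. This scaling moved the median of all genes to 0.13 and -0.23, and relative to these EMC10 was at 1.23 and 1.04. Relative to the same medians EMC1 (-0.20 and -0.49), EMC6 (-0.11 and -0.48) and MMGT1 (-0.050 and -0.38) were lower on both arrays, whereas the unshifted ratios of EMC6 (0.018) and MMGT1 (0.080) were above 0 with normal labelling. The list medians became -0.070 for the complex without EMC10, -0.020 for the SEC61 translocon, -0.16 for the GET pathway, -0.13 for the multipass translocon and -0.0092 for the endoplasmic reticulum stress genes. With the mean over a gene's probes EMC10 was at 0.81, and 0 genes of the complex passed. With the log ratios of the scanner, 67 probes were changed 2-fold. The 1.5-fold threshold passed 218 probes and 1 gene of the signal recognition particle, SRPRA. With 1 array alone, 86 to 133 probes passed, EMC10 was at 1.14 to 1.15, and the medians were -0.091 to 0.00076 for the complex, -0.093 to -0.036 without EMC10, -0.020 to 0.037 for the SEC61 translocon, -0.20 to 0.0028 for the GET pathway, -0.11 to -0.093 for the multipass translocon, -0.16 to -0.053 for the signal recognition particle and 0.038 to 0.069 for the stress genes. The causes were not tested. No paired analysis was possible because there is 1 group, whose ratios already compare both RNAs within an array.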

Other observations

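Genes of the endoplasmic reticulum stress response, which is induced when unfolded proteins build up in this compartment, were read beside the complex. Of 12 measured genes 5 were higher on both arrays, 3 lower on both and 4 opposite in sign, with a median log2 ratio of 0.046, and none was 2-fold changed, against 26.8% of all genes higher and 26.7% lower on both arrays. DDIT3, the transcription factor CHOP, was the highest with 0.38 with normal labelling and 0.45 after the dye swap. HSPA5, the chaperone BiP of the lumen, was the lowest with -0.24 and -0.40. DDIT3 and HSPA5, both read as markers of this response, lay on opposite sides of 0, also in every alternative with both arrays. They were named as the highest and lowest of the list, which favours opposite signs, so this is a description. At the brightest probe of each gene, DNAJB9, ATF4, ATF3 and TRIB3 were also higher on both arrays after loess, and HSP90B1 and DNAJC3 also lower. Some of these signs depended on the processing. With median centring HSP90B1 was at 0.26 with normal labelling and DNAJB9 at -0.034 after the dye swap. HSP90B1 after the dye swap was at 6.5e-05 with the scanner software's log ratios and at 0.0030 with the mean over its probes. The 4 measured ATF3 probes had means from -0.19 to 0.049. XBP1 had an outlier spot at its probe and was not measured.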
